A study of Mus musculus with 79 samples.

Results

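The 40 genes described here encode the contractile apparatus of skeletal muscle and the calcium handling and energy supply proteins that serve it, and they were found by gene symbol in the expression tables of bone and fat from mice given leptin into the brain. All 40 were present among 39063 features with a numeric gene ID and all 40 were among the 14873 genes tested, which had a mean of at least 0.4 TPM (a level scaled for transcript length and library size). RNA was sequenced from 79 samples of 51 mice, 18 female and 33 male, adults of 4 to 5 months by the series' design text and in part older by the published methods, with caudal vertebrae (CV, tail bones rich in marrow fat) from every mouse, lumbar vertebrae (LV, with little marrow fat) from the 18 females and inguinal white adipose tissue (iWAT) from 10 females. Mice were WT (BMAd-Pnpla2+/+) or cKO (BMAd-Pnpla2-/-, with the lipase gene Pnpla2 deleted in bone marrow adipocytes), littermates on a mixed SJL and C57BL6 background. Each mouse received PBS or leptin at 100 ng per h into the cerebral ventricles (ICV) for 9 days, and 11 male WT mice also had insulin delivered under the skin over the same period. In CV there were 5 WT PBS, 5 WT leptin, 4 cKO PBS and 4 cKO leptin females, 5 WT PBS, 8 WT leptin, 5 cKO PBS and 4 cKO leptin males, and 5 PBS with insulin and 6 leptin with insulin WT males. LV came from the same 18 females, and iWAT from the 5 WT PBS and 5 WT leptin females.

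No sample was labelled as muscle, and the removal of muscle from the adult vertebrae and fat is not described in the sources used here. In these bulk samples, a lower level of a muscle gene because less muscle was present and a lower level because each muscle fibre held less of that RNA cannot be told apart. The labels give each mouse a number, and the numbers fall into series: 21 mice in the 100s, 13 in the 600s, 6 with 4-digit numbers, and the 11 insulin mice in the 300s and 400s, so that series and insulin cannot be told apart. CV libraries held 16100377 to 19364106 counts, LV libraries 28717516 to 29757254 and iWAT libraries 17638318 to 19100698. The tissue markers followed the labels, with the adipocyte hormone gene Adipoq at 13.2 to 129.5 TPM in CV, 0.3 to 3.08 TPM in LV and 242 to 983 TPM in iWAT. Pnpla2 itself was at 217 to 288 TPM in female WT PBS CV and 131 to 256 TPM in female cKO PBS CV, and at 191 to 294 and 135 to 209 TPM in the male groups, so that the genotypes overlapped in both sexes in this whole tissue.

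Skeletal muscle shortens when myosin heads of the thick filament pull on actin of the thin filament, a cycle that calcium switches on through the troponin complex and that calcium pumps switch off. Fibres differ in speed because fast and slow fibres carry different genes for the same parts: Myh1, Myh2 and Myh4 for the heavy chains of fast myosin against Myh7 for slow, and separate fast and slow troponins and light chains. The 40 genes were split into 14 fast genes (Myh1, Myh2, Myh4, Actn3, Tnnt3, Tnni2, Tnnc2, Myl1, Mylpf, Mybpc2, Myoz1, Casq1, Atp2a1 and Pvalb), 8 slow genes (Myh7, Tnnt1, Tnni1, Tnnc1, Myl2, Myl3, Mybpc1 and Myoz2) and 18 that both fibre kinds use. By role, 10 belong to the thick filament, 9 to the thin filament, 7 to the Z disc and elastic scaffold, 7 to calcium handling and 7 to energy supply. The fast and slow sets were kept apart because the study also measured, in leg muscle, which fibre types shrink under chronic leptin. It reports atrophy of type II (fast) fibres in the gastrocnemius and no change in type I (slow) fibres. Those male mice were of another strain, and the measure was fibre area, not RNA.

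Muscle genes are often switched on through short sequences upstream of their start, among them the E-box, bound by myogenic factors, and the CArG box, bound by serum response factor. The 250 bases upstream of 3 members are shown because each of these genes fell in more than 1 leptin comparison and has a single start in the RefSeq table of GRCm38.p6. For Tnnc1 and Myl3, 1 of these comparisons was in iWAT, where their levels were low. Letters run 5′ to 3′ on the gene's own strand and capitals mark E-boxes (CANNTG) and the CArG box, searched on both strands. Tnnc1, slow troponin C, lies on chromosome 14 from 31208312 to 31211729 and its window is chr14:31208062-31208311 on the plus strand. Myl3, a slow myosin light chain, lies on chromosome 9 from 110763678 to 110769802 and its window is chr9:110763428-110763677 on the plus strand. Casq1, the calcium store protein of fast fibres, lies on chromosome 1 from 172209894 to 172219895 and its window is chr1:172219896-172220145 on the minus strand.
Tnnc1: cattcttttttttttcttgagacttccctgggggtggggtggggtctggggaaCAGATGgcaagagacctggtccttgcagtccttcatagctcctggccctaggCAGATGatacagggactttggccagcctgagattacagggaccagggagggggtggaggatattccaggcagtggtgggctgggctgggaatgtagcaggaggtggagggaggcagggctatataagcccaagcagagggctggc
Myl3: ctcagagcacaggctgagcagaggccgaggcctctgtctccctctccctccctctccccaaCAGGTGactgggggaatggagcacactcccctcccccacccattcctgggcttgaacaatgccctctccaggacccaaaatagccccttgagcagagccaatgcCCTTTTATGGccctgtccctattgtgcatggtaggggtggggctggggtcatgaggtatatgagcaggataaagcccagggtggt
Casq1: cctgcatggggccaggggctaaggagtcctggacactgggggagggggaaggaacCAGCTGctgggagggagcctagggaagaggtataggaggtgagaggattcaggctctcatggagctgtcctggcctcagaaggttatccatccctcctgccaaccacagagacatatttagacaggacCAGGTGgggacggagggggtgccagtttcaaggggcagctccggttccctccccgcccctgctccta

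The Tnnc1 window held 2 E-boxes, starting at -197 and -145 from the gene start, and the Casq1 window held 2, at -195 and -67. The Myl3 window held an E-box at -189 and a CArG box at -85, the only CArG box among these 3 windows. A window was used for 31 of the 40 members. Chromosome 18, where Myot lies, was left out for members and for all genes. CANNTG was present in 28 of these 31 (90.3%) and in 69.3% of the 27025 genes with a window, and the narrower form CAGCTG, which is counted within CANNTG, was present in 18 of 31 (58.1%) against 14.7% of all genes. The CArG box was present in 3 of 31 members (9.68%) against 1.62% of all genes, the MEF2 motif in 6 of 31 (19.4%) against 3.42%, and TATAAA in 6 of 31 (19.4%) against 14.3%. CANNTG was found in 8 of 10 fast and 8 of 8 slow members with a window, so the E-box did not separate the fibre sets.

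Muscle RNA made up a large share of CV and very little of LV or iWAT. The summed level of the 40 genes ran from 35637 to 128650 TPM in the 51 CV libraries (median 76382 TPM), or 3.56% to 12.9% of all transcripts. In the 18 LV libraries it ran from 1660 to 5719 TPM (median 2782 TPM), and in the 10 iWAT libraries from 151 to 6796 TPM (median 526.5 TPM). Every CV library therefore lay above every LV and iWAT library, while the iWAT libraries ranged from almost no muscle RNA to more than any LV library.

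**Figure D1:**
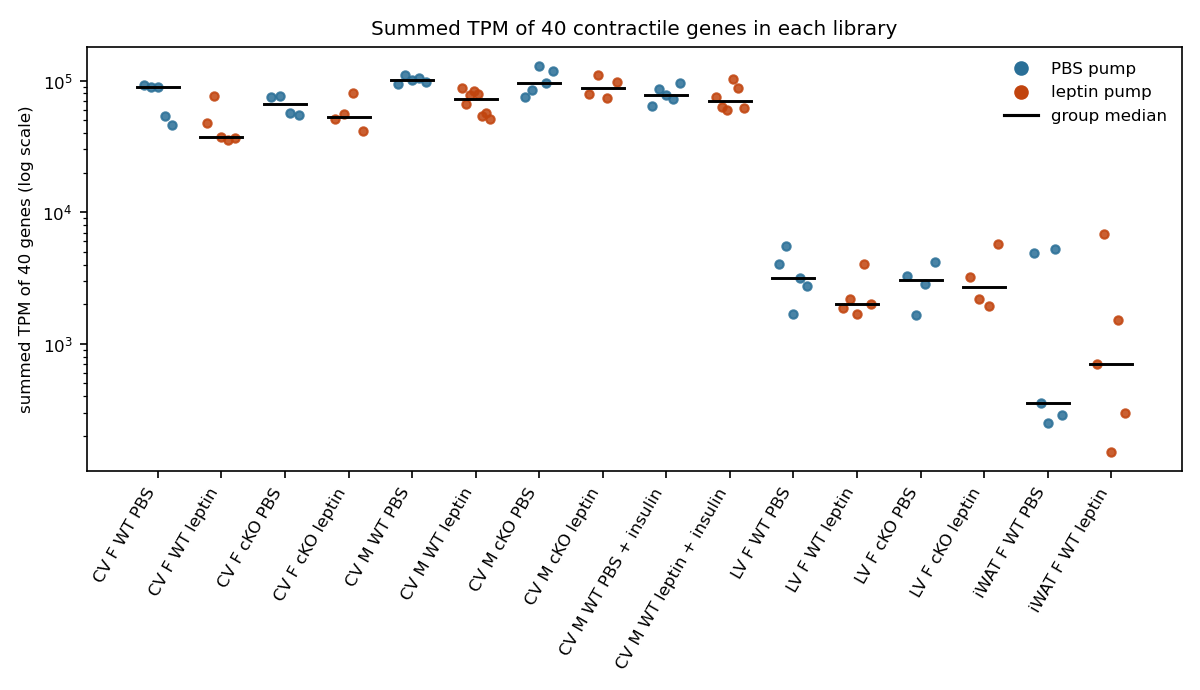
Summed TPM of the 40 genes in each library, on a log axis, by tissue and group; each point is 1 library, blue for PBS and red for leptin, and bars mark group medians. CV libraries sit between 35637 and 128650 TPM, LV libraries between 1660 and 5719 TPM, and iWAT libraries spread from 151 to 6796 TPM.

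In CV the highest median levels belonged to fast and shared parts of the filaments. Mylpf, the fast regulatory light chain, had a median of 8927 TPM, Acta1, skeletal actin, 8823 TPM, and Tnnt3, fast troponin T, 8202 TPM. Mb, the oxygen store myoglobin, followed at 6475 TPM, Tnnc2 and Tnni2, fast troponins C and I, at 5711 and 5163 TPM, Myl1, the fast essential light chain, at 4295 TPM, and Ckm, muscle creatine kinase, at 3677 TPM. The most abundant slow gene was Myl2, the slow regulatory light chain, at 3030 TPM. At the low end stood Ttn, the giant elastic protein titin, at 18.9 TPM, Myh4 at 20.1 TPM and Ryr1, the calcium release channel, at 32.0 TPM. Most members varied among the 51 CV libraries by less than 10-fold from lowest to highest, from 2.67-fold for Mybpc1, slow myosin binding protein C, to 8.23-fold for Ckmt2, mitochondrial creatine kinase. Larger ranges were seen for Myh4 at 117-fold, for Mybpc2, fast myosin binding protein C, at 22.6-fold, for Pvalb, the calcium buffer parvalbumin of the fastest fibres, at 12.0-fold and for Actn3, the fast Z disc actinin, at 11.3-fold. The genes that varied most were thus all fast.

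In LV the same filament genes led at far lower levels, with medians of 330.9 TPM for Tnnt3, 307 TPM for Mylpf and 302 TPM for Acta1. In iWAT the highest median was that of Tpm2, beta tropomyosin, at 115 TPM, with a narrow range of 67.8 to 269 TPM. Des, the intermediate filament protein desmin, also varied little in iWAT, from 14.7 to 100.4 TPM. Both genes are known from smooth muscle too, and the 5 smooth muscle markers summed to 370 to 866 TPM in iWAT against 24.0 to 54.0 TPM in LV; their part in the Tpm2 and Des levels was not tested.

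The heavy chain genes gave each tissue a different fibre signature. Myh1, Myh2 and Myh4 lie side by side on chromosome 11 of GRCm38.p6, from 67200102 to 67224577, from 67171027 to 67197517 and from 67237812 to 67260447, and are near-identical in long stretches, so that reads may have been split between them and the separate values are uncertain. As a share of the summed TPM of the 4 heavy chain genes, Myh1, the heavy chain of type IIX fibres, took a median of 72.0% in CV, with 15.5% for Myh2 of type IIA fibres, 10.1% for Myh7 of slow fibres and 1.03% for Myh4 of type IIB fibres. In LV Myh4 led with a median of 50.7% (42.4% to 66.0%), Myh1 followed at 31.0% and Myh7 had 4.77%. In iWAT Myh4 took a median of 81.0% (27.2% to 97.01%). The Myh4 share never exceeded 12.97% in CV and never fell below 42.4% in LV, so these tissues did not overlap.

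**Figure D2:**
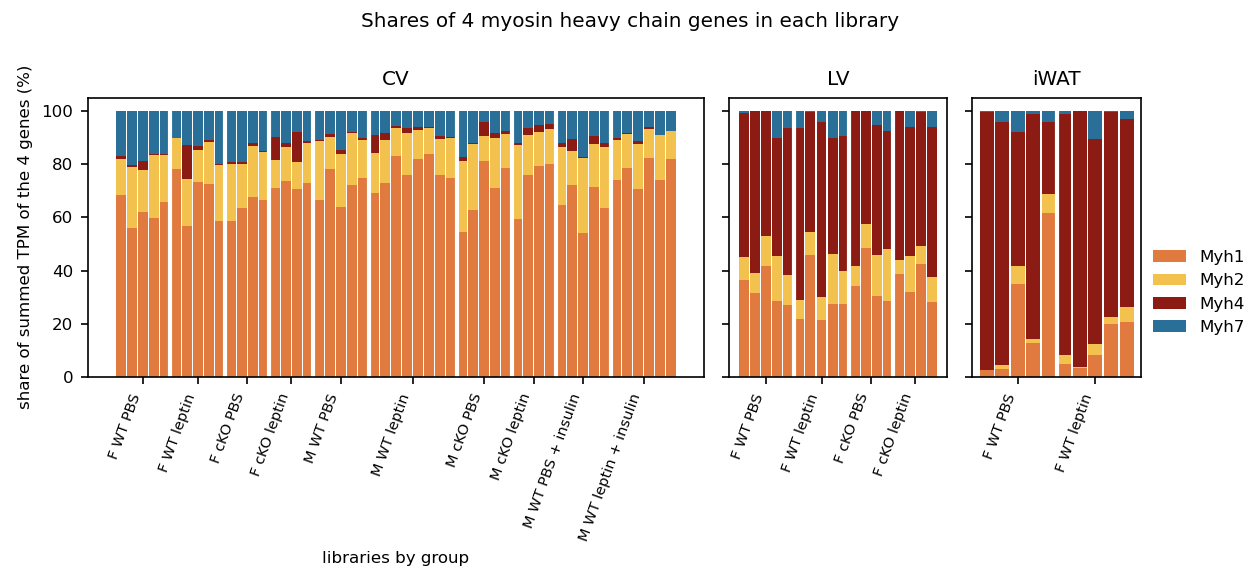
Share of each of the 4 heavy chain genes in their summed TPM, in percent, as a stacked bar for every library, by tissue and group. Myh1 holds a median of 72.0% in CV, and Myh4 holds medians of 50.7% in LV and 81.0% in iWAT.

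The ratio of fast to slow troponin T moved the same way between tissues. Tnnt3 TPM divided by Tnnt1 TPM had a median of 5.78 in CV (3.40 to 11.6), 16.5 in LV (8.46 to 143) and 75.2 in iWAT (4.93 to 330). CV thus held the most slow-fibre RNA relative to fast, although the ranges of the ratio overlapped between tissues.

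CV and LV of the same 5 female WT PBS mice were compared by edgeR's quasi-likelihood test with TMM scaling. The libraries were treated as independent, so the sharing of mice between tissues was left out of this fit. A gene was called where its p, adjusted by the Benjamini-Hochberg method across the 14873 genes, was below 0.05 and its log2 difference was at least 0.5. Shares of all tested genes called, in percent, are those of edgeR throughout, and none is given for counts with a mouse left out. In CV 37 of the 40 members were higher than in LV, where 34.7% of all tested genes were called higher. The median log2 difference was 3.56 over the 40 genes (0.02 over all genes), 2.87 over the 14 fast and 5.35 over the 8 slow genes. With each mouse kept as a block 37 members were again higher, beside 5159 genes higher in all, with a median of 3.67 over the 40 genes. Myh7 differed most, at 6.04 ± 1.18 (SE, edgeR adjusted p = 0.000186), with means of 372.3 TPM in CV and 2.44 TPM in LV. The slow genes were uneven among these LV libraries, so these values average unlike mice. Their summed level in LV was 43.9, 35.0 and 18.7 TPM in replicates 1 to 3, of the 100s. It was 288 and 156 TPM in replicates 4 and 5, of the 600s. The 3 members not called were Myh4 (-1.56 ± 1.18), Pvalb (1.54 ± 1.01) and Mybpc2 (1.62 ± 0.97), all fast. The TPM scale adds a general shift, since the median of all genes rose by 0.87 on the log2(TPM + 1) scale in limma. There 39 members were called higher, beside 9836 of the 14873 tested genes.

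Against iWAT, 38 of 40 members were higher in CV, beside 25.6% of all tested genes, and the median log2 difference was 4.79. With each mouse kept as a block the median was 5.90, again with 38 members higher, beside 3811 genes higher in all. The slow genes stood apart by a median of 9.36, led by Myl2 at 11.48 ± 1.20, whereas Myh4 (-1.85 ± 1.19) and Mybpc2 (1.77 ± 0.98) were not called. Between iWAT and LV, 19 members were lower in iWAT, beside 32.9% of all tested genes, and 6 of the 8 slow genes were among them against 5 of the 14 fast. The count of 19 depended on the mice, with 12 calls without the mouse of replicate 5. It was 24 when each mouse was kept as a block, beside 4915 genes lower in all.

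Within LV the slow genes also separated the mice by their numbers, a split that crosses genotype and treatment and is given as a description. In the 10 LV libraries from mice of the 100s the median of Myh7 was 0.075 TPM (0 to 2.52 TPM), and in the 8 libraries of the other series it was 5.95 TPM (1.88 to 10.2 TPM). Tnnc1 had medians of 1.17 and 32.8 TPM, Tnni1, slow troponin I, 0.47 and 14.5 TPM, and Myl2 4.73 and 94.8 TPM. All 8 slow genes had a higher median in the second set of mice, by 2.03 to 79.3 times, whereas 13 of the 14 fast genes differed by less than 2 times in either direction, Myh2 being the exception at 3.40 times. Sln, the calcium pump regulator sarcolipin, went with the slow genes at 43.3 times (0.295 against 12.8 TPM). Among the mice of the 100s, 2 lay nearer the others, with Tnnc1 at 10.8 TPM in female WT leptin replicate 1 and at 12.1 TPM in female cKO leptin replicate 2. In CV of the same mice the ratio for slow genes was 0.52 to 0.954, so the LV pattern was not repeated there. Extraction and dissection records of these mice were not used here, and what the mouse number stands for was not tested.

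**Figure D3:**
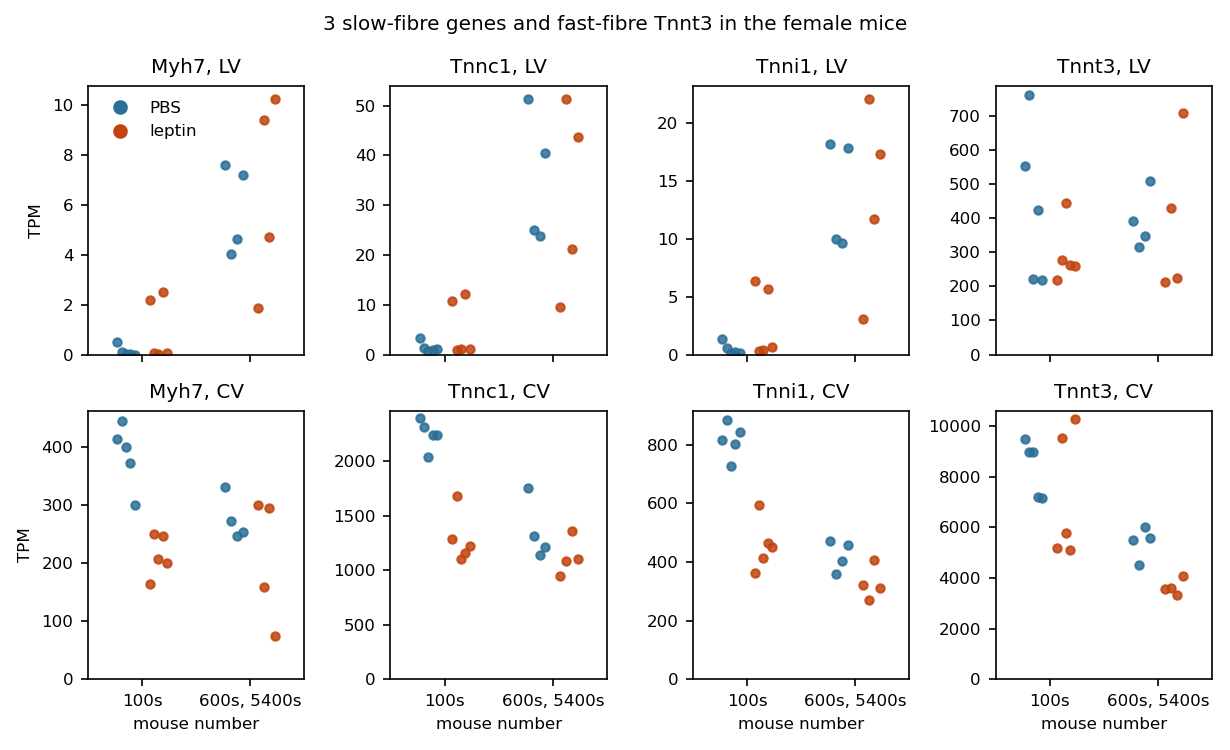
TPM of 3 slow genes (Myh7, Tnnc1 and Tnni1) and the fast gene Tnnt3 in LV (upper row) and CV (lower row) of the 18 females, on linear axes from 0, with mice of the 100s on the left and of the other series on the right of each panel; each point is 1 library, blue for PBS and red for leptin. In LV Tnnc1 is at 0.62 to 12.1 TPM in the 100s and at 9.47 to 51.4 TPM in the other series, while Tnnt3 spans 217 to 760 TPM and 212.5 to 708 TPM.

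Leptin was first compared with PBS in CV, the marrow-fat depot at the centre of the study. In female WT CV, 5 of 40 members fell with leptin (Casq1, Ttn, Trdn, Mb and Ckmt2), beside 2.25% of all tested genes called lower, and none rose, beside 2.78% called higher. By fibre type, 1 of 14 fast, 0 of 8 slow and 4 of 18 shared genes fell. At an unadjusted p below 0.05 there were 21 of 40 members, 6 of them slow, beside 3841 of the 14873 tested genes. Of the 40 members 38 had a negative log2 fold change, with a median of -0.65 against -0.01 over all genes. DESeq2 called 8 members, beside 444 genes lower in all, and limma on log2(TPM + 1) called 6, beside 259.

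Mb and Trdn were the called members whose groups did not overlap. Mb was at 6997, 6915, 6971, 6608 and 4827 TPM in the 5 PBS mice and at 3950 (3949.56), 3544, 2400 (2399.67), 3317 and 2897 TPM in the 5 leptin mice. Every leptin mouse was below every PBS mouse, and the fall was 1.04 on the log2 scale (log2 fold change -1.04 ± 0.18 SE, edgeR adjusted p = 0.00951). Trdn, triadin, which anchors the calcium release complex, was at 190.9, 186.03, 187.5, 201.9 and 170.8 TPM with PBS and at 93.0, 110.1, 144, 128 and 119 TPM with leptin. These groups did not overlap either, with a log2 fold change of -0.68 ± 0.10 (adjusted p = 0.00459 from edgeR). Ckmt2 had the largest fall, -1.53 ± 0.35 (edgeR adjusted p = 0.0253), from 111, 140.3, 124, 74.9 and 62.6 TPM to 23.3, 64.1, 33.5, 23.3 and 34.2 TPM. Here leptin replicate 2 lay above PBS replicate 5, so the groups overlapped by a single pair. Casq1 changed by -1.06 ± 0.27 (edgeR adjusted p = 0.0329), with PBS mice at 376 to 704 TPM and leptin mice at 182.5 to 399 TPM, overlapping in a single pair, and Ttn by -0.63 ± 0.16 (edgeR adjusted p = 0.0314), with means of 21.1 and 14.6 TPM and groups that overlapped.

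Most filament genes were lower on average in leptin females without passing the test. Acta1 was at 13209.9, 14525, 12684, 4522 and 4665 TPM with PBS and at 7103, 11167, 4326, 4171 and 5305 TPM with leptin (log2 fold change -0.64 ± 0.43, edgeR adjusted p = 0.385). Tnnt3 was at 9494, 8989, 8980.0, 5498 and 4502 TPM with PBS and at 5204, 9535, 3569.7, 3601 and 3313 TPM with leptin, and Tnnt1, slow troponin T, at 2109, 2062, 1963, 1304 and 1126 TPM and 961, 1354, 878, 752 and 930.5 TPM. In each of these genes PBS replicates 4 and 5, the mice of the 600s, were the lowest of their group, and leptin replicate 2 was the highest of its group. Ckm had 4599.7, 3923, 4661, 2133 and 2086 TPM with PBS and 2047, 3576, 1772, 1357 and 1552 TPM with leptin (edgeR adjusted p = 0.202). Among heavy chains, Myh7 was at 414, 444, 399.98, 330.6 and 272 TPM with PBS and at 164, 251, 299.8, 159 and 295 TPM with leptin (-0.69 ± 0.23, edgeR adjusted p = 0.0829). Myh1 ranged from 1102 to 1673 TPM and from 860.2 to 1648 TPM, Myh2 from 296 to 493.3 TPM and from 184.99 to 346 TPM, and both overlapped between groups. Myh4 was at 3.4 to 77.3 TPM with PBS and at 3.44 to 257 TPM with leptin, the widest relative spread of the heavy chains.

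The female count moved with single mice. Without leptin replicate 2, whose summed level of 76004 TPM stood above the 35637 to 47419 TPM of the other leptin mice, 25 members were called lower. Without any of 4 others (PBS replicate 1, PBS replicate 2, leptin replicate 4 or leptin replicate 5) 2 were called, Mb and Trdn; without PBS replicate 3 or leptin replicate 1 the count was 3, without PBS replicate 4 or leptin replicate 3 it was 4, and without PBS replicate 5 it was 8. Within the 100s (2 leptin and 3 PBS mice) the median difference over the 40 genes was -0.62 on the log2(TPM + 1) scale, with 39 lower, and within the 600s (3 leptin and 2 PBS mice) it was -0.36, with 33 lower. Mb differed by -0.90 and -0.99 within these series. With the series as a covariate 13 members were called, beside 384 genes lower in all.

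In male WT CV, 12 of 40 members fell with leptin, beside 0.914% of all tested genes called lower, and none rose, beside 0.834% called higher. Of the slow genes 5 of 8 fell, of the fast 4 of 14 and of the shared 3 of 18, and the difference between these shares was not tested. At an unadjusted p below 0.05 there were 25 of 40 members, beside 2823 of the 14873 tested genes. The median log2 fold change was -0.46 over the 40 genes, against 0.0005 over all genes. It was -0.70 over the slow, -0.52 over the fast and -0.29 over the shared genes. DESeq2 called 18 and limma 10, beside 190 and 89 genes lower in all. With the series of mouse number as a covariate 20 members were called lower, beside 210 genes lower in all.

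All 3 slow troponins were among the called genes. Tnnt1 was at 1860 (1859.71), 1722, 1872, 1512 and 1593 TPM in the 5 PBS mice, and the 8 leptin mice had a lowest value of 935 TPM, a median of 1003.5 TPM and a highest of 1217 TPM (log2 fold change -0.75 ± 0.09 SE, edgeR adjusted p = 0.000349). Tnnc1 was at 2829, 1998, 2219, 2471 and 2157 TPM with PBS and at 1201, 1439 and 1706 TPM (lowest, median and highest) with leptin (-0.75 ± 0.10, edgeR adjusted p = 0.000804). Tnni1 fell by 0.67 on the log2 scale (edgeR adjusted p = 0.000997), from means of 789 to 513 TPM. None of the 3 overlapped between the groups, and all 3 were called in each of the 19 alternative analyses. The slow light chains fell as well, Myl2 by more than any other member, -1.07 ± 0.14 (edgeR adjusted p = 0.000799). It was at 4137, 4118, 5816, 4827 and 4910.0 TPM with PBS and at 1637, 2327 and 3183 TPM with leptin, again without overlap. Myl3 fell by 0.74 on the log2 scale (edgeR adjusted p = 0.00864), with 1 leptin mouse at 408 TPM above the lowest PBS mouse at 384 TPM. The other 3 slow genes did not pass, with Myh7 at -0.37 ± 0.20, Mybpc1 at -0.34 ± 0.12 and Myoz2, calsarcin of slow fibres, at -0.45 ± 0.19.

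**Figure D4:**
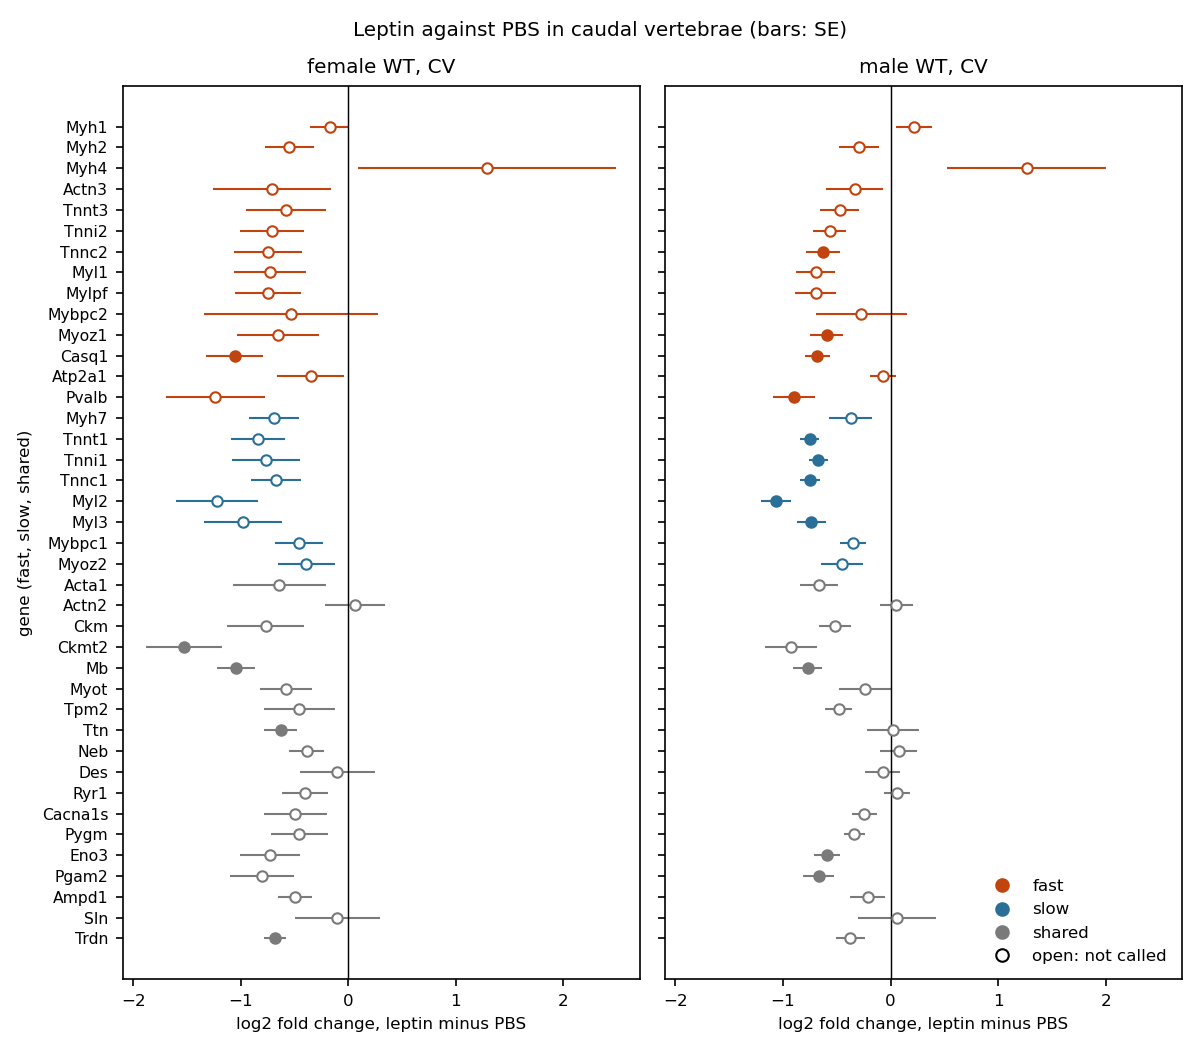
Log2 fold change (leptin minus PBS, with SE) of each of the 40 genes in female WT and male WT CV, grouped into fast, slow and shared, with called genes filled. In males 12 genes are called, of which 5 are slow, and in females 5, and no gene is called above 0 in either sex.

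Among the fast genes, 3 calcium-binding proteins and a Z disc protein fell, and no heavy chain was called. Casq1 (-0.68 ± 0.12, edgeR adjusted p = 0.00601), Pvalb (-0.90 ± 0.20, edgeR adjusted p = 0.0254), Tnnc2 (-0.63 ± 0.16, edgeR adjusted p = 0.0438) and Myoz1, the fast calsarcin (-0.59 ± 0.15, edgeR adjusted p = 0.0489), were called. Mylpf (-0.69 ± 0.19, edgeR adjusted p = 0.0642) and Myl1 (-0.70 ± 0.18, edgeR adjusted p = 0.0517) missed the threshold, although the Mylpf groups did not overlap. Myh1 had a log2 fold change of 0.22 ± 0.17, with 1313 to 2059 TPM with PBS and a lowest, median and highest of 1511, 1716 and 3177 TPM with leptin. Myh2 was at -0.29 ± 0.18, with a median of 360.5 TPM with PBS and 331.4 TPM with leptin, and Myh4 at 1.26 ± 0.74, with 6.41 to 30.5 TPM and 5.86 to 173 TPM. Atp2a1, the calcium pump of fast fibres, was at -0.07 ± 0.12. Whether the heavy chains differed from the light chains in their response was not tested.

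Of the shared genes, the called members all serve energy supply. Mb fell from 9077, 10093, 8537, 10613 and 7563 TPM to a lowest, median and highest of 4477, 5281.5 and 7306 TPM (-0.77 ± 0.14, edgeR adjusted p = 0.00701), without overlap. Eno3, muscle enolase, and Pgam2, muscle phosphoglycerate mutase, both of glycolysis, changed by -0.59 ± 0.12 (edgeR adjusted p = 0.0187) and -0.67 ± 0.14 (edgeR adjusted p = 0.0202). Ckmt2 had -0.92 ± 0.24 and missed the threshold (edgeR adjusted p = 0.0508), as did Ckm (-0.52 ± 0.15, edgeR adjusted p = 0.0756), Pygm, muscle glycogen phosphorylase (-0.34 ± 0.10), and Ampd1, muscle AMP deaminase (-0.21 ± 0.16). Tpm2 passed on p (edgeR adjusted p = 0.0492) and not on size (-0.48). Acta1 was at 11714 to 15127 TPM with PBS and at 6107, 8085 and 11949 TPM with leptin (edgeR adjusted p = 0.0552), and Tnnt3 at 9583 to 12464 TPM with PBS and at 4970.4, 8000.0 and 10362 TPM with leptin (edgeR adjusted p = 0.170). Several scaffold and calcium genes had values near 0, with Ttn at 0.02 ± 0.24, Neb, the thin filament ruler nebulin, at 0.07 ± 0.18, Actn2, Z disc actinin, at 0.05 ± 0.15, Des at -0.07 ± 0.16 and Ryr1 at 0.06 ± 0.12. Cacna1s, the voltage sensor (-0.24 ± 0.11), Trdn (-0.37 ± 0.13), Myot, the Z disc protein myotilin (-0.24 ± 0.24), and Sln (0.06 ± 0.36) did not pass.

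Leaving out single males changed the count to between 7 and 18, the lowest without PBS replicate 2, which had the highest Tnnt3 level of its group. Within the 100s (5 leptin and 3 PBS mice) the median difference over the slow genes was -0.61 and over the fast genes -0.30 on the log2(TPM + 1) scale, and within the 600s (3 leptin and 2 PBS mice) -0.68 and -0.82. The medians of the slow genes lay close together in both series and those of the fast genes did not, a difference that was not tested. Casq1 and Mb were the members called in both sexes, 2 of the 5 in females and 2 of the 12 in males. The leptin effect was also compared between the sexes in a fit of the 4 WT groups. No member was called in that interaction (edgeR, 0 at an unadjusted p below 0.05 and 0% of all tested genes called; 0 members by DESeq2), so the different counts in females and males do not show a difference between the sexes.

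Other cell types moved in the same CV samples. Of all tested genes 2.78% were called higher in females and 0.834% in males, and 2.25% and 0.914% were called lower. The 5 erythroid markers, led by the globin genes Hba-a1 and Hbb-bs, summed to 1994 to 5899 TPM in female PBS and 5061 to 21527 TPM in female leptin mice, and to 1910.3 to 5316 TPM and 6677 to 17525 TPM in males, with 3 of 5 called higher in each sex. The 5 bone markers summed to 2341 to 6367 TPM with PBS and 5263 to 15975 TPM with leptin in females, with 2 of 5 called higher (Col1a1 and Alpl), and none was called in males. Of the 5 adipocyte markers, Adipoq and Plin1 fell in both sexes. The 5 tendon markers summed to 739 to 1149 TPM with PBS and 421 to 923 TPM with leptin in females, where Tnmd, tenomodulin, fell (-0.85 ± 0.14, edgeR adjusted p = 0.00833), and to 899.6 to 1241 TPM and 799 to 1500.1 TPM in males, where no tendon marker was called. The part of these cell types in the muscle gene values was not tested.

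Genes of muscle outside the 40 gave the surroundings of these changes. In female WT CV, 1 of 23 other sarcomere genes fell with leptin (Lmod3, which lengthens thin filaments, -0.93 ± 0.24), and in male WT CV none did, with 5 at an unadjusted p below 0.05 in each sex. Of the 14873 tested genes, 3841 in females and 2823 in males had such a p, so the sarcomere counts were near the share of all genes. Called lower were 2.25% of all tested genes in females and 0.914% in males. Of 14 membrane and calcium genes of muscle, 6 fell in females (Jph2, Stac3, Clcn1, Casq2, Srl and Hrc, by 0.51 to 0.71 on the log2 scale) and 0 in males by edgeR, where 7 were at an unadjusted p below 0.05. Of 11 neuromuscular junction genes tested, Chrne, the adult acetylcholine receptor subunit, and Colq fell in females and none was called in males. Among 18 genes linked to muscle atrophy, none was called in females, and in males Trim63, the ubiquitin ligase MuRF1, rose by 0.69 ± 0.17 (edgeR adjusted p = 0.0447), beside 0.834% of all tested genes called higher. In males 16 of the 18 were positive, with a median of 0.41 against 0.0005 over all genes. The list is not particular to muscle, since it summed to a median of 2132 TPM in CV and 1956 TPM in iWAT. The cell source of these values was not tested. Fbxo32, the ligase atrogin-1, had values of 0.38 ± 0.24 in males and -0.22 ± 0.20 in females and did not pass. The 4 myogenic factor genes tested had no calls in either sex, and their list summed to 53.4 to 74.6 TPM with PBS and 56.5 to 73.5 TPM with leptin in females.

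Genes known from developing or denervated muscle were also measured in CV. Myh3, embryonic myosin, was at 4.23 to 44.3 TPM in CV and at most 0.18 TPM in LV and 0.28 TPM in iWAT. Myh8, perinatal myosin, was at 2.25 to 22.8 TPM in CV and at most 0.08 TPM in LV, and Chrna1, an acetylcholine receptor subunit, at 7.88 to 46.4 TPM in CV and at most 0.22 TPM in LV. Heart markers were low, summing to 27.4 to 108 TPM in CV, and in female WT CV Myh6 and Tnnt2 fell with leptin, by 1.24 and 0.71 on the log2 scale.

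Deletion of Pnpla2 in marrow adipocytes was not accompanied by a called change of any member. With PBS, cKO and WT mice were compared in female CV, male CV and female LV. In each, edgeR, DESeq2 and limma called 0 members. An unadjusted p below 0.05 in edgeR was found for 2, 1 and 0 members, beside 1476, 783 and 388 of the 14873 tested genes. Of all tested genes edgeR called 0% in each, and DESeq2 called 17 lower and 30 higher in female CV, 17 and 23 in male CV and 3 and 11 in female LV. In female CV 39 of 40 members had negative log2 differences, with a median of -0.24 (-0.0018 over all genes), and in male CV 19 of 40, with a median of 0.02. The male cKO PBS mice were of the 100s and the 4-digit series and the WT mice of the 100s and 600s. With series as a covariate the male median was -0.39, and within the 100s the summed level was 75436 and 85484 TPM in the 2 cKO mice, below the 93769 to 109558 TPM of the 3 WT mice. Mb was at 4676 to 5516 TPM in female cKO PBS CV and at 4827 to 6997 TPM in WT (-0.37 ± 0.16, edgeR adjusted p = 0.474).

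Within cKO mice no member passed the test of leptin against PBS. In female cKO CV edgeR called 0 members, beside 0.0269% of all tested genes called. At an unadjusted p below 0.05 there were 8 members, beside 1723 of the 14873 tested genes. DESeq2 called 2 members lower, beside 142 of all tested genes lower, and limma called 0 members. Ckmt2 was at 101.1, 71.4, 78.97 and 76.6 TPM with PBS and at 26.2, 34.3, 37.9 and 39.3 TPM with leptin (-1.14 ± 0.20, edgeR adjusted p = 0.0969). Casq1 was at 655, 565.5, 480.3 and 551 TPM with PBS and at 250.3, 388, 323 and 234 TPM with leptin (-0.84 ± 0.18, edgeR adjusted p = 0.173). Neither gene overlapped between groups, yet neither passed across all genes with 4 mice a group. Myh4 went the other way, from 20.1, 7.31, 22.8 and 5.77 TPM to 184.2, 30.8, 298 and 3.51 TPM (3.32 ± 1.09, edgeR adjusted p = 0.337), with the last leptin mouse below every PBS mouse. The medians were -0.46 over the slow and 0.03 over the fast genes. In male cKO CV edgeR and DESeq2 called 0 members, beside 0.188% of all tested genes called by edgeR. At an unadjusted p below 0.05 there were 4 members, beside 1436 of the 14873 tested genes, a similar share. The median was -0.14 (-0.11 over the slow genes). Of the 4 leptin mice here 2 were of the 600s, which hold no male cKO PBS mouse, and with series as a covariate the median was -0.02. Tnnc1 in male cKO was at 1243 to 2282 TPM with PBS and at 1457 to 1994 TPM with leptin, whereas the male WT groups did not overlap.

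The difference in leptin effect between genotypes was tested directly. No member was called in either sex by edgeR or DESeq2, and edgeR called 0% of all tested genes. An unadjusted p below 0.05 was found for 906 of the 14873 tested genes in females and 393 in males. Among members it was found for 0 in females and 6 in males. Of these 6, 5 were slow genes (Tnnc1, Tnni1, Tnnt1, Myl2 and Myoz2), and the interaction was 0.66 ± 0.18 for Tnnc1 and 0.79 ± 0.24 for Myl2 (edgeR adjusted p = 1.0 for both, cKO minus WT). The median over the 8 slow genes was 0.62 in males and 0.39 in females, against -0.01 and 0.01 over all genes. With series as a covariate the median over the 40 genes moved from 0.35 to 0.70 in males and from 0.49 to 0.15 in females. A difference between genotypes is therefore not shown for any member.

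In LV no member was called with leptin in WT or cKO females by edgeR or DESeq2. Of all tested genes edgeR called 0% in either genotype, and DESeq2 called 86 lower and 58 higher in WT and 17 lower and 55 higher in cKO. In WT LV 9 members had an unadjusted p below 0.05, 7 of them fast, beside 2183 of the 14873 tested genes. All 14 fast genes had negative values with a median of -0.63 against 0.10 over the slow genes. That contrast was present within the 100s (fast -0.78 and slow 0.35 on the log2(TPM + 1) scale) and not within the 600s, where the slow median was -0.42, with 8 of 8 negative, and the fast median -0.30. Tnnt3 was at 552.9, 760 (759.84), 222, 390.0 and 315 TPM with PBS and at 217, 277, 212.5, 430 (429.75) and 225 TPM with leptin (-0.79 ± 0.30, edgeR adjusted p = 0.243), and Pvalb had the largest value, -1.04 ± 0.34 (edgeR adjusted p = 0.198). The groups overlapped in both genes. In cKO LV 0 members were at an unadjusted p below 0.05, and the median was 0.02. The leptin effect was compared between CV and LV of WT females as well, and no member was called (edgeR, 0 at an unadjusted p below 0.05, 0 by DESeq2), beside 2.53% of all tested genes.

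In iWAT the muscle genes followed single fat pads. The summed level was 4863, 356, 249, 5281 and 286 TPM in the 5 PBS mice and 697, 6796, 151, 1527 and 298 TPM in the 5 leptin mice. A few samples of either group were thus high, the highest being that of leptin replicate 2, the same mouse whose CV also had the most muscle RNA of its group. Acta1 showed the same shape at 614.5, 16.7, 9.77, 625.4 and 13.3 TPM with PBS and 45.1, 855 (855.17), 1.05, 169.4 and 23.9 TPM with leptin. Ckm and Tnnt3 reached 824 and 851 TPM in the same leptin sample.

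Against this spread, 2 of the 40 members fell with leptin in iWAT, beside 7.87% of all tested genes called lower. That share was no larger among members than among all genes. Myl3 was at 4.53, 2.81, 1.79, 7.69 and 1.66 TPM with PBS and at 0, 0.36, 0, 0.63 and 1.34 TPM with leptin (-2.84 ± 0.81, edgeR adjusted p = 0.0264). Tnnc1 was at 1.29, 3.61, 1.63, 7.36 and 1.96 TPM with PBS and at 0.47, 1.2, 0.47, 0.74 and 0.95 TPM with leptin (-1.95 ± 0.55, edgeR adjusted p = 0.0246). Both are slow genes, and for each every leptin mouse was below every PBS mouse. PBS replicate 4, which was rich in Acta1, had the highest level of both. The levels were low, and no member was called without PBS replicate 4 or without leptin replicate 4, and only Tnnc1 without PBS replicate 1. The median over the 40 genes was -0.06, and it moved to -1.61 without leptin replicate 2 and to 0.68 without PBS replicate 4. Within the 100s the median difference was 1.30 and within the 600s -1.25 on the log2(TPM + 1) scale, so the direction was not shared by the series.

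Insulin was given to WT males with PBS or leptin. With leptin and insulin, Tnnc1 was the single member called against leptin alone, beside 0.141% of all tested genes called higher. It was at 2317, 1630.0, 1874, 2237, 2401 and 2003 TPM with leptin and insulin, against a lowest, median and highest of 1201, 1439 and 1706 TPM with leptin (0.54 ± 0.12, edgeR adjusted p = 0.0368). A single insulin mouse, replicate 2, lay within the range of the leptin mice. No member was called without leptin replicate 1, 2, 7 or 8 or without leptin with insulin replicate 1, 4 or 5, while 2 were called without leptin replicate 3 or leptin with insulin replicate 6, and 3 without leptin with insulin replicate 2. The next genes were Tnnt1 (0.40 ± 0.10, edgeR adjusted p = 0.0664), Trdn (0.68 ± 0.18, edgeR adjusted p = 0.0673) and Mb (0.61 ± 0.18, edgeR adjusted p = 0.0893). At an unadjusted p below 0.05 in edgeR there were 6 members, beside 2475 of the 14873 tested genes. That share was no larger among members than among all genes. DESeq2 called 3 members (of 69 genes higher in all) and limma 0. Mb was at 8113, 6269.0, 6475, 11834, 11344 and 6024 TPM with leptin and insulin. Every mouse was above the leptin median of 5281.5 TPM, but replicates 2, 3 and 6 lay within the range of the leptin mice. All 8 slow genes had positive values, with a median of 0.26 against 0.11 over the fast genes.

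**Figure D5:**
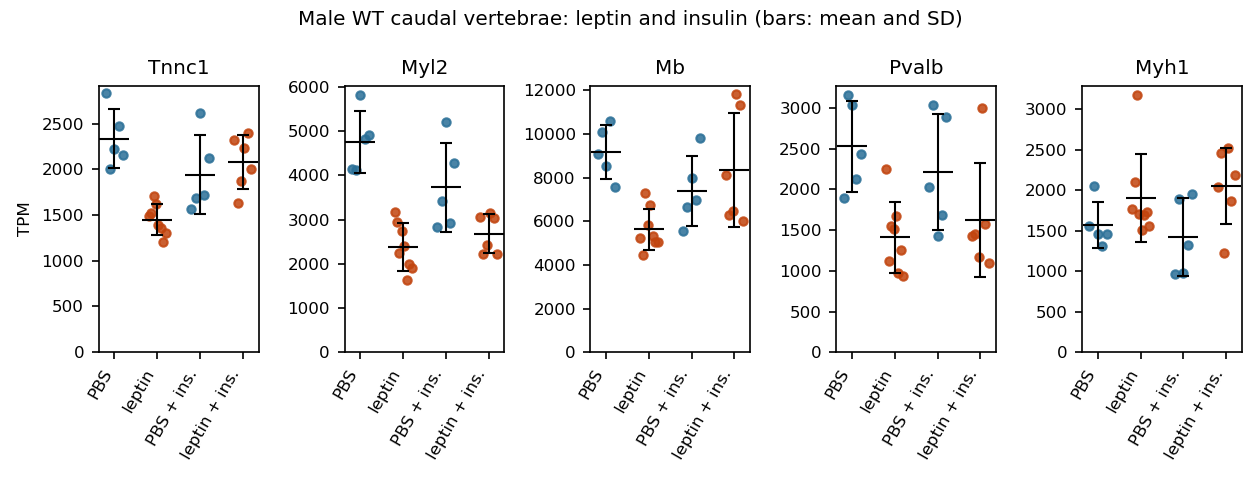
TPM of Tnnc1, Myl2, Mb, Pvalb and Myh1 in CV of male WT mice with PBS, leptin, PBS with insulin and leptin with insulin, on linear axes from 0; each point is 1 mouse and bars give the mean and SD. For Tnnc1 the leptin mice lie at 1201 to 1706 TPM, and the leptin with insulin mice at 1630.0 to 2401 TPM.

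Insulin without leptin gave no called member by edgeR, beside 0% of all tested genes called. At an unadjusted p below 0.05 there were 14 members, beside 976 of the 14873 tested genes. DESeq2 called 3 members lower, of 4 genes called lower in all, and limma called 0. Of the 40 values 35 were negative, with a median of -0.34. Acta1 was at 7167, 8513, 9129, 8167 and 9171 TPM with PBS and insulin against 11714, 13147, 12452, 15127 and 13857 TPM with PBS (-0.76 ± 0.18, edgeR adjusted p = 0.448). The Acta1 groups did not overlap, yet Acta1 did not pass across all genes. Between leptin with insulin and PBS with insulin no member was called by edgeR or DESeq2. Of all tested genes edgeR called 0.558% in either direction. At an unadjusted p below 0.05 there were 5 members, beside 2312 of the 14873 tested genes, a share no larger among members. Myl2 was there at 2213 to 3142 TPM with leptin and at 2834 to 5207 TPM without (-0.40 ± 0.17, edgeR adjusted p = 0.261).

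The leptin effect with insulin minus that without was positive for 38 of 40 members, including all 8 slow genes, with a median of 0.45 (0.67 over the slow and 0.40 over the fast genes). No member was called in this interaction by edgeR, where 0% of all tested genes were called. An unadjusted p below 0.05 was found for 16 members, 7 of them slow, beside 1385 of the 14873 tested genes. DESeq2 called 4 members higher, of 6 genes called higher in all. Tnnc1 had 0.92 ± 0.19 and Tnnt1 0.77 ± 0.16 (edgeR adjusted p = 0.194 for both), and Mb 1.02 ± 0.27 (edgeR adjusted p = 0.504). Myh4 had -3.11 ± 1.10 (edgeR adjusted p = 0.529), the largest value and of opposite sign. The insulin mice carried numbers of their own series, so series and insulin cannot be told apart. Series was also uneven with leptin among them: all 5 PBS with insulin mice were of the 300s, and of the leptin with insulin mice replicates 4 to 6 were of the 400s. The summed levels of these 3 were 102665, 88462 and 61792 TPM, against 75443, 63498 and 59911 TPM in the 3 of the 300s, and replicates 4 and 5 had the highest Mb. Without replicate 4 the median of leptin with insulin against leptin moved from 0.16 to -0.0008.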

How the data were processed

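Per the labels and the study's methods, RNA was extracted with TRIzol, primed with random hexamers after oligo dT selection, sequenced as 100 bp paired reads on DNBSEQ, filtered with SOAPnuke and aligned with HISAT and Bowtie2 to GRCm38.p6 (the labels also list GRCm39); the counting tool is not given in the sources used here. The authors deposited an estimated count per gene and library, not normalized, and the same libraries as TPM, scaled by the authors for transcript length and depth. Here the estimated counts were rounded (51 values were not whole), features with a numeric gene ID and a mean of at least 0.4 TPM were kept (14873), and groups from the labels were compared with edgeR 4.0.16 (quasi-likelihood, TMM, SE from the fold change and F) in R 4.3.3, with a gene called at a Benjamini-Hochberg adjusted p below 0.05 and a log2 fold change of at least 0.5 in size. TPM served for levels and shares, and for limma 3.58.1 on log2(TPM + 1) as an alternative beside DESeq2 1.42.0. Other alternatives were RLE scaling, no filter, a replicate block, the series of mouse number as a covariate and each replicate left out. Scripts were tested on simulated data. Replicates are separate mice; the closest pair of libraries differed by more than sampling noise (chi-square per gene 10.96). Tissue comparisons share mice, and the main fit did not include the mouse. Each library held at least 16100377 counts.

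The 40 members, their fibre split and roles, and 15 further lists of marker and muscle genes (122 genes, 119 tested) were chosen with earlier results of these data known. Genes named with a value in every sample were the 4 heavy chains, Acta1, Ckm, Tnnt3 and Tnnt1 and the called members with the largest changes per comparison; others are given for their role, chosen after their values were seen.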

Additional observations from a re-analysis of the deposited data

Results flagged for a closer look

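A library was set apart where its gap to the nearest other of its group, relative to the group's range, passed Dixon's 95% limit; 17 of 144 tests did so, where chance gives about 1 in 20. In iWAT, leptin replicate 2 had the highest summed level of the 40 genes (6795.8 TPM, next 1526.8 TPM) and was set apart for Myh4 (370.1 TPM), Acta1 (855.2 TPM), Ckm (823.8 TPM) and Tnnt3 (851.4 TPM). Of the iWAT PBS mice, replicate 4 was set apart for Myh1 (31.55 TPM), Myh2 (3.52 TPM), Myh7 (2.48 TPM) and Tnnt1 (6.07 TPM). In LV, WT leptin replicate 4 was set apart for the summed level (4007.9 TPM, next 2177.9 TPM) and for Myh2 (17.16 TPM), and cKO leptin replicate 4 for Myh4 (98.04 TPM).

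In CV the libraries set apart concerned Myh4 in 3 of 5 cases, namely female WT leptin replicate 2 (256.6 TPM), male WT leptin replicate 1 (173.4 TPM) and male cKO PBS replicate 3 (133.1 TPM). The others were Myh1 in male WT leptin replicate 3 (3176.5 TPM) and Tnnt3 in male WT PBS replicate 2 (12463.5 TPM, next 10033.9 TPM). The cause of these levels was not tested.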

How the results depend on the processing

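In female WT CV, where 5 members fell with leptin, DESeq2 called 8, the replicate block 9 and the mouse-number series as a covariate 13. Beside these, 444, 394 and 384 genes were lower in all. With 1 replicate left out the count was 2 to 25. In male WT CV, where 12 fell, the replicate block gave 3 and the mouse-number series as a covariate 20, beside 32 and 210 genes lower in all. With 1 replicate left out the count was 7 to 18. Leaving out 1 replicate gave 0 to 3 members in iWAT with leptin, 12 to 23 between iWAT and LV, and 0 to 3 between leptin with insulin and leptin. That insulin comparison, with 1 member called, gave 3 with DESeq2, 0 with limma on log2(TPM + 1) and 0 with the replicate block. Where edgeR called none, DESeq2 called 2 in female cKO CV with leptin, 3 between PBS with insulin and PBS, and 4 in the interaction of insulin and leptin. Same-numbered mice of different treatments are different mice, and in no comparison did every same-numbered pair correlate above 0.1 (mean correlation of a comparison -0.118 to 0.2025, with 4 of 5 pairs above 0.1 in female WT CV), so the block pairs numbers only. For the 20 calls of single genes with leptin or insulin, 295 of 369 alternative values stayed called, 74 did not and 0 reversed, with Mb and Trdn in females and Tnnc1, Tnni1 and Tnnt1 in males called under every alternative, and Myoz1 lost under 13 of 19. The cause of these differences was not tested. Members listed at 0 in at least 1 library were Myh7 in LV and Myoz2, Sln, Myl3, Ckmt2, Myl2, Pgam2 and Tnni1 in iWAT, whose levels are the least precise.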

Other observations

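The remaining marker lists held 5 genes each. No smooth muscle, cartilage, neutrophil or nerve gene was called by edgeR with leptin in WT CV of either sex. In females 1 smooth muscle gene and 2 cartilage genes had an unadjusted p below 0.05, and in males 1 smooth muscle gene and 3 nerve genes. Of the 14873 tested genes, 3841 in females and 2823 in males had such a p. Whether these lists differed from all genes was not tested. Of the genes listed for brown fat, none was called in females, whereas in males Cidea rose by 1.08 and Cox8b fell by 0.92 on the log2 scale. In all CV libraries the median was 930.5 TPM for Cox8b and 6.92 TPM for Ucp1, and the cell source of Cox8b was not tested. Between CV and LV of female WT PBS mice, all 23 other sarcomere genes and all 5 tendon genes were higher in CV, and all 5 erythroid and all 5 neutrophil genes were lower. The 4 heart genes tested had no call in male WT CV with leptin (0 at an unadjusted p below 0.05).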
